A study of Mus musculus with 6 samples.

Results

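The major histocompatibility complex (MHC) of the mouse, the stretch of chromosome 17 that holds the H2 genes, was described here as 173 array regions in DNA from hypothalamus, a brain region known for its control of appetite and body weight. The regions were chosen by position alone. A probe belonged to the locus if it lay between 33500000 and 37150000 on chromosome 17 in the mm9 build, and a region needed at least 3 such probes in a row with no more than 500 bp between neighbouring starts. The locus held 1368 of the 174638 probes of the array, of which 1325 fell into the 173 regions and 43 into none, and the 173 regions were part of 22574 in all. Samples came from mouse offspring at 16 week of age, 3 from dams under inulin treatment (a plant fibre that gut bacteria ferment) and 3 from obesity dams. The labels call the obesity group maternal obesity in one place and maternal high fat diet in another, and they do not say whether the inulin dams were obese as well. Strain, sex and litter of the offspring are not given, so every p-value rests on the spread among these 6 samples, which may be technical. Methylated DNA was pulled down from genomic DNA with an antibody (methylated DNA immunoprecipitation, MeDIP), labelled with Cy5 (red) and hybridised against the untreated input DNA of the same sample in Cy3 (green). The arrays hold no expression values, so the tissue could not be checked against marker genes.

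MHC class I molecules show peptides made inside a cell to cytotoxic T cells, and class II molecules show peptides taken up from outside to helper T cells. Class I heavy chains (H2-K1 and H2-D1, and the H2-Q, H2-T and H2-M families) lie at both ends of the locus, and class II chains (H2-Aa, H2-Ab1, H2-Eb1) lie inside the centromeric end beside the genes that cut and load peptides (Psmb8, Psmb9, Tap1, Tap2). Between them lies the class III stretch with the complement genes C2, Cfb, C4a and C4b, the cytokine genes Tnf, Lta and Ltb, and the heat shock genes Hspa1a and Hspa1b. In the brain, class I molecules are also found on neurons, where they are known for a role in synapse refinement, while class II molecules mark activated microglia. DNA methylation in mammals sits mostly on the cytosine of CpG dinucleotides, and a MeDIP signal depends on how many methylated CpGs a fragment carries as well as on the share of them that is methylated.

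The promoters of the locus span a wide range of CpG density. Of 103 genes listed by role, 102 were found on chromosome 17 in the RefSeq gene table and 84 had a promoter in the RefSeq promoter table (GRCm38.p6, 300 bases per gene start). The median number of CpGs per promoter was 3 for 8 class II chains and 4 for 22 class I heavy chains. It was 10 for 3 genes of the tumour necrosis factor family, 13 for 4 peptide processing genes and 13.5 for 16 other class III genes. It was 15 for 3 heat shock genes and 19.5 for 28 framework genes, those listed under none of the other roles, such as Ring1 and Brd2. The median over the 27025 genes of the table was 7. Examples of a low, a middle and a high CpG content are given as the 250 bases before the gene start, with each CG in capitals. They belong to H2-Aa, the alpha chain of a class II molecule, to H2-D1, a classical class I heavy chain, and to Ring1, a subunit of the Polycomb repressive complex.
H2-Aa promoter, chr17:34287824-34288073, - strand: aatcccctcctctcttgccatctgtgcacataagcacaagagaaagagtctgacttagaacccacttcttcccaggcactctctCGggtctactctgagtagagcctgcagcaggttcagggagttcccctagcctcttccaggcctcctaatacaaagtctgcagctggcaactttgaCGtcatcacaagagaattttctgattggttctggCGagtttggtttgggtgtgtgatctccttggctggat
H2-D1 promoter, chr17:35262844-35263093, + strand: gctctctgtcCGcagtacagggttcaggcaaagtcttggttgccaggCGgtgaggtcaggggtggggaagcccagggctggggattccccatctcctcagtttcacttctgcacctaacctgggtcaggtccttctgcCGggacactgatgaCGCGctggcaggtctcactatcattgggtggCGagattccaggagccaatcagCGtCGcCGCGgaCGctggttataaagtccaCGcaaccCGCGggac
Ring1 promoter, chr17:34024681-34024930, - strand: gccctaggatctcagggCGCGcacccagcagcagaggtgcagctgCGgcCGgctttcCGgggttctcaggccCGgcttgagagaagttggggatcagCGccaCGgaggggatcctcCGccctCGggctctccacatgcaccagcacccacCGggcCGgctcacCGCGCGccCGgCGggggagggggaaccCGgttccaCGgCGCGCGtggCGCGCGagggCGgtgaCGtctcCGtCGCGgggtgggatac
The sequence shown has 3 CpGs for H2-Aa, 14 for H2-D1 and 30 for Ring1. The array gives positions in mm9 and names no gene, while these sequences are placed in GRCm38.p6, so no array region is tied to a gene.

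On the arrays, a value is the log2 of red over green, or of a channel alone, minus the median of that array over all probes. A value of 0 is therefore the typical probe of the array, and a positive ratio means more MeDIP signal per input than there. A region's value is the mean of its probes. The MHC regions had a median of 8 probes (3 to 19) and 1594 bp. In the MHC the input was well above background at 97.1% of spots and the MeDIP signal at 85.9%, against 95.4% and 79.7% over all regions. Spots marked as outliers were left out, and 80 of the 173 regions lacked at least 1 probe on at least 1 array, which can shift the mean of a single channel. By scan time in the file headers, the 3 inulin arrays formed one scan, obesity arrays 1 and 3 another, and obesity array 2 was scanned alone, so no scan held both groups. Only 3 arrays per group limit the precision of every value.

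MHC regions had slightly higher ratios than the rest of the array and spread less. The median of their ratios, each averaged over the 6 arrays, was 0.066, against -0.027 in the 925 regions of the rest of chromosome 17 and -0.055 over all regions. The interquartile range was 0.60 in the MHC, 0.95 in the rest of chromosome 17 and 0.81 over all regions. Ratios above 0 were found at 97 of 173 MHC regions (56.1%), against 46.2% over all regions. Strong depletion was less frequent, with 5 MHC regions (2.89%) below -1 against 10.3% over all regions, whereas 2 (1.16%) exceeded 1 against 1.32%. When all regions were split into 5 equal classes by ratio, the lowest class held 12 MHC regions (6.94%), and the next 4 classes held 33, 45, 43 and 40. These are descriptions of levels that neither group sets: the MHC median was 0.088, 0.094 and 0.035 on the inulin arrays and 0.047, 0.071 and 0.050 on the obesity arrays. The groups overlapped in this median, with 0.072 ± 0.032 in inulin and 0.056 ± 0.013 in obesity (SD, n = 3 each).

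**Figure D1:**
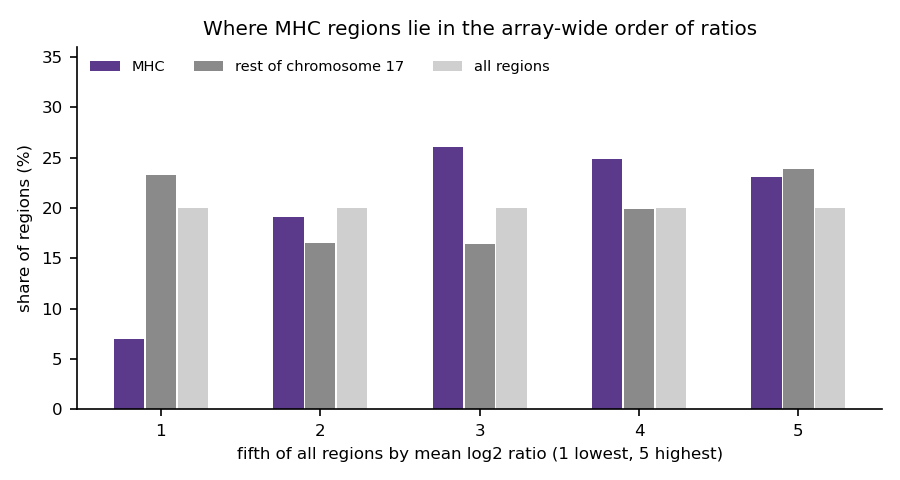
Share of regions (%) in each of 5 equal classes of all 22574 regions by mean log2 ratio of MeDIP over input, for the MHC (173 regions), the rest of chromosome 17 (925 regions) and all regions. The MHC bar is at 6.94% in the lowest class and between 19.1% and 26.0% in the other classes.

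Both channels were brighter in the MHC than elsewhere. The median input signal was 0.37 in the MHC and 0.049 over all regions, and the median MeDIP signal was 0.44 against 0.057. The ratio fell with the mean length of a region's probes, which ran from 45 to 60 bp on this array (Spearman's rho -0.49 over 173 MHC regions, -0.67 over all regions). MHC regions had a median probe length of 47.1 bp, against 48.5 bp over all regions. Across the MHC, MeDIP and input signals of a region followed each other closely (rho 0.87 over 173 regions), and the ratio and the input hardly did (rho 0.13). The points of these descriptions share arrays and probe composition.

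The locus was uneven along its length. In windows of 250000 bp counted from its start, the highest median ratio was 0.51, in the window from 35500001 to 35750000, where 12 of 12 regions lay above 0. The window from 34000001 to 34250000 had a median of 0.26 with 15 of 17 regions above 0. At the other extreme, none of the 3 regions between 36500001 and 36750000 and none of the 5 regions between 36750001 and 37000000 exceeded 0, with medians of -0.53 and -0.57. These 2 windows held few regions. The highest window had medians of 0.49 in inulin and 0.51 in obesity, and the lowest had -0.52 in inulin and -0.62 in obesity. Between 36500001 and 36750000 the medians were -0.36 in inulin and -0.78 in obesity, but they came from different regions. The obesity median was that of chr17:36598775-36600482, a region called below, whose inulin mean was -0.27. The median of the differences of the 3 regions was 0.18. Neighbouring regions resembled each other only weakly, with Pearson's r of 0.10 over 66 pairs less than 10 kb apart and 0.24 over 106 pairs farther apart.

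**Figure D2:**
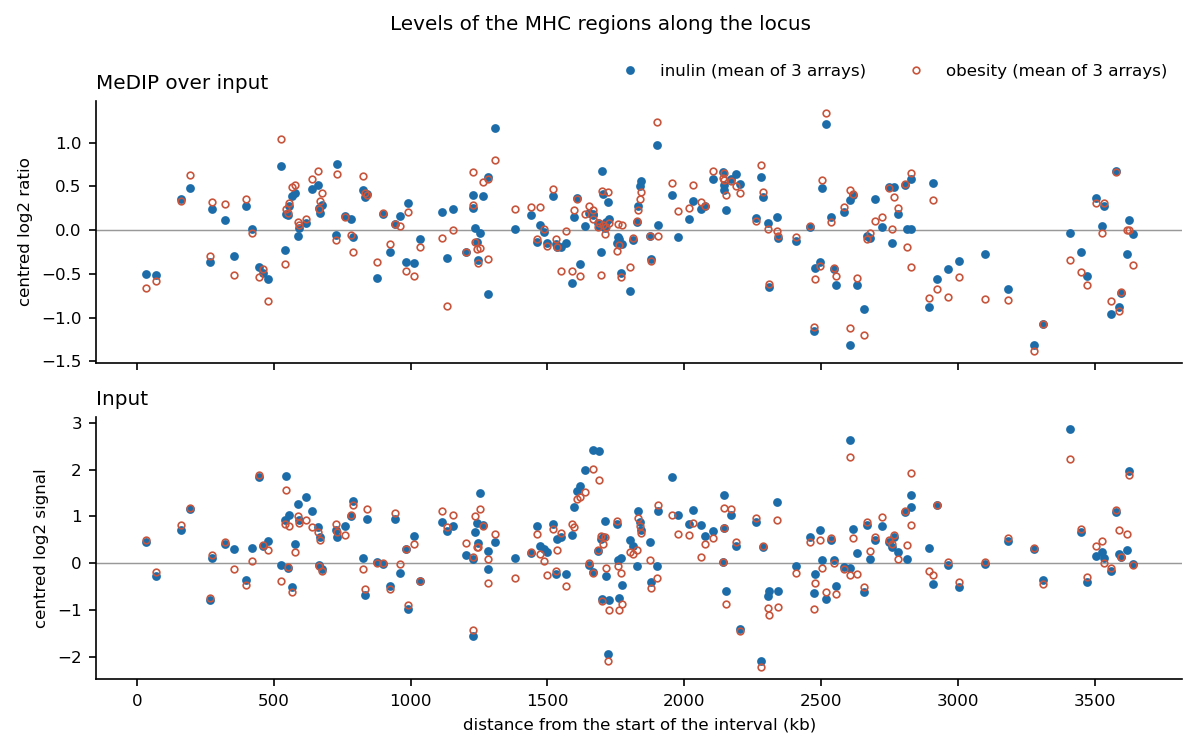
Mean log2 ratio of MeDIP over input (top) and mean log2 input signal (bottom) of the 173 MHC regions, against the distance in kb from the start of the interval, for inulin (filled) and obesity (open). Each point is the mean of 3 arrays, centred on the array's median. The group means of a region mostly lie close together.

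The region with the highest ratio, chr17:36016342-36017014, had a ratio of 1.31, 1.05 and 1.29 in inulin and 1.23, 1.48 and 1.31 in obesity. Its mean of 1.28 exceeded that of 99.7% of all regions, and the groups overlapped. The next 4 were chr17:35398830-35400429 (mean 1.11), chr17:34806819-34807967 (0.98), chr17:34027079-34028114 (0.89) and chr17:34231770-34233364 (0.70). Of these, the region at 34806819 had 1.20, 1.23 and 1.08 in inulin and 0.76, 0.996 and 0.64 in obesity. Its groups did not overlap and differed by 0.37, but by limma the adjusted p was 0.054, above 0.05. Over probes measured on all arrays it was 0.0455. The lowest ratio was that of chr17:36779094-36780838, with -1.42, -1.37 and -1.15 in inulin and -1.34, -1.47 and -1.33 in obesity. Another 4 regions averaged below -1, at chr17:36107324-36107877 (-1.21), chr17:35974747-35975746 (-1.13), chr17:36808653-36810389 (-1.08) and chr17:36157006-36157907 (-1.05). None of these 5 was called on the ratio between the groups.

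Inputs ranged widely too. The dimmest inputs were those of chr17:35780147-35781734 (-2.16), chr17:35222044-35222919 (-2.02) and chr17:34726167-34727137 (-1.49), and the ratios of these 3 were above 0 (0.67, 0.37 and 0.27). The brightest were chr17:36909267-36910149 (2.55), chr17:36106205-36106860 (2.45) and chr17:35165459-35166184 (2.21). The first of these is raised by 1 probe, chr17:36909912-36909956, whose input was 7.79, 7.81 and 7.46 on the inulin arrays and 7.01 and 7.05 on obesity arrays 1 and 3. On obesity array 2 this spot was marked as an outlier, and the region's input there was 1.42, against 2.63 and 2.66 on the other obesity arrays. Over the 4 probes measured on all arrays the region's input was 1.72, 1.59 and 1.65 in inulin and 1.53, 1.42 and 1.57 in obesity. A missing bright probe can thus move a channel mean by more than 1 log2 unit, while the ratio at this region moved little.

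The first comparison asked where the ratio of MeDIP over input differed between inulin and obesity offspring. By limma with Benjamini-Hochberg adjustment over all 22574 regions, 9 of 173 MHC regions passed 0.05 (5.20%), 6 higher and 3 lower in inulin. Over all regions the share was 7.42%, with 5.61% higher and 1.81% lower. In this main setting the MHC was thus not above the background of the array. At an unadjusted p under 0.05 the counts were 33 MHC regions (19.1%), against 28.6% over all regions. The groups did not overlap at 46 MHC regions, 23 in each direction (26.6%), against 35.0% over all regions. The median difference, inulin minus obesity, was -0.0033 in the MHC and 0.033 over all regions, and single MHC regions lay between -0.40 and 0.55. Differences fell with the level of a region (Spearman's rho -0.28 over 173 MHC regions, -0.52 over all regions), and the 6 higher calls lay in the second and the third class by ratio. In the lowest class none of the 12 MHC regions was called. There the rest of chromosome 17 had 47 of 215 called, and all regions had 801 higher and 11 lower calls among 4515. The MHC had few regions in this class, and the gap was not tested. None of the 9 calls was left when any 1 of the 3 inulin arrays was left out, or when scan was a random block, where 19 MHC regions had an unadjusted p under 0.05. Under each of these 4 settings, limma called no region anywhere on the array. Without obesity array 3 there were 2 calls (1.16%, against 2.80% over all regions), and without obesity array 1 there were 4 (2.31%, against 4.22%). Over spots well above background in both channels there were 3, a share above that of the array (1.73%, against 0.614%).

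The 6 regions with a higher ratio lay at 1135 kb and from 2828 to 3639 kb from the start of the interval, and the 3 lower ones between 528 and 1900 kb. At chr17:34633875-34635393, 1135 kb from the start, the ratio was -0.21, -0.27 and -0.47 in inulin and -0.70, -0.88 and -1.02 in obesity. All inulin arrays lay above all obesity arrays, and the difference was 0.55 ± 0.10 (SE, limma adjusted p = 0.0237, n = 3 each). At chr17:36598775-36600482 the values were -0.33, -0.22 and -0.27 in inulin and -0.61, -0.94 and -0.80 in obesity. This difference was 0.51 ± 0.092 (SE, limma adjusted p = 0.0226, n = 3 each). These 2 were the only ones of the 9 that were still called over spots well above background in both channels, with differences of 0.55 and 0.51. Over probes measured on all arrays, the MeDIP signal of the 2 regions differed by 0.38 and 0.45 and their input by -0.18 and -0.047, and none of these channel differences passed the threshold.

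The other 4 higher regions differed by 0.31 to 0.44. At chr17:36327930-36328389 the ratio was -0.036, 0.095 and -0.0062 in inulin and -0.38, -0.33 and -0.55 in obesity (difference 0.44, limma adjusted p = 0.0239). One of its 3 probes had no usable spot on any inulin array, and over the 2 probes measured on all arrays the difference was 0.37. At chr17:37136865-37140939, with 16 probes on all arrays, the ratio was -0.0007, -0.064 and -0.062 in inulin and -0.32, -0.56 and -0.31 in obesity (difference 0.35, limma adjusted p = 0.0421). Its MeDIP signal was higher in inulin by 0.34 and its input differed by 0.0057. The brightest-input region, chr17:36909267-36910149, had -0.10, -0.031 and 0.039 in inulin and -0.23, -0.43 and -0.38 in obesity (difference 0.31, limma adjusted p = 0.0486). Over its 4 probes measured on all arrays the difference was 0.28 and its adjusted p 0.055. At chr17:36462598-36464279 the ratio was -0.50, -0.43 and -0.42 in inulin and -0.82, -0.73 and -0.72 in obesity (difference 0.31, limma adjusted p = 0.0350). In each of these 4 regions every inulin array lay above every obesity array.

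At the 3 lower regions the input of every inulin array lay above that of every obesity array, but neither the input (limma adjusted p = 0.0768, 0.116 and 0.0871, in the order below) nor the MeDIP signal (0.497 or more) passed the threshold over all usable spots. The input is part of the ratio on which these regions were called, so this separation is not an independent result. The groups did not overlap on the input at 34.2% of all regions. At chr17:34780542-34782168 the ratio was -0.69, -0.79 and -0.71 in inulin and -0.42, -0.27 and -0.30 in obesity, a difference of -0.40 ± 0.074 (SE, limma adjusted p = 0.0239, n = 3 each). Its input was -0.12, -0.083 and -0.14 in inulin and -0.40, -0.35 and -0.52 in obesity, so the input was higher in inulin by 0.31, whereas the MeDIP signal differed by -0.11. At chr17:34027079-34028114 the ratio was 0.78, 0.72 and 0.69 in inulin and 1.02, 1.13 and 0.98 in obesity (difference -0.32, limma adjusted p = 0.0366). There the input was higher by 0.33 and the MeDIP signal differed by -0.0089. The region with the second highest ratio of the locus, chr17:35398830-35400429, had 0.98, 0.98 and 0.96 in inulin and 1.25, 1.22 and 1.25 in obesity (difference -0.26, limma adjusted p = 0.0447). Its input was higher by 0.26 and its MeDIP signal differed by -0.024. Over probes measured on all arrays, a setting added after the data were seen, the input difference passed the threshold at all 3 regions (limma adjusted p = 0.0174, 0.0288 and 0.0281). The MeDIP difference passed at none (0.396, 0.949 and 0.830). These 3 regions lacked no probe, so their values were the same in both settings and only the p-values differed. In the authors' deposited table the last of the 3 regions differed by 0.0054 on that table's own scale, which is not known. When each array was put on an equal scale, the 3 ratio differences were -0.52, -0.12 and -0.022. Only the first was then called (limma adjusted p = 0.0201, 0.309 and 0.883). With the median of the probes they were -0.11, -0.20 and -0.14, and none was called.

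**Figure D3:**
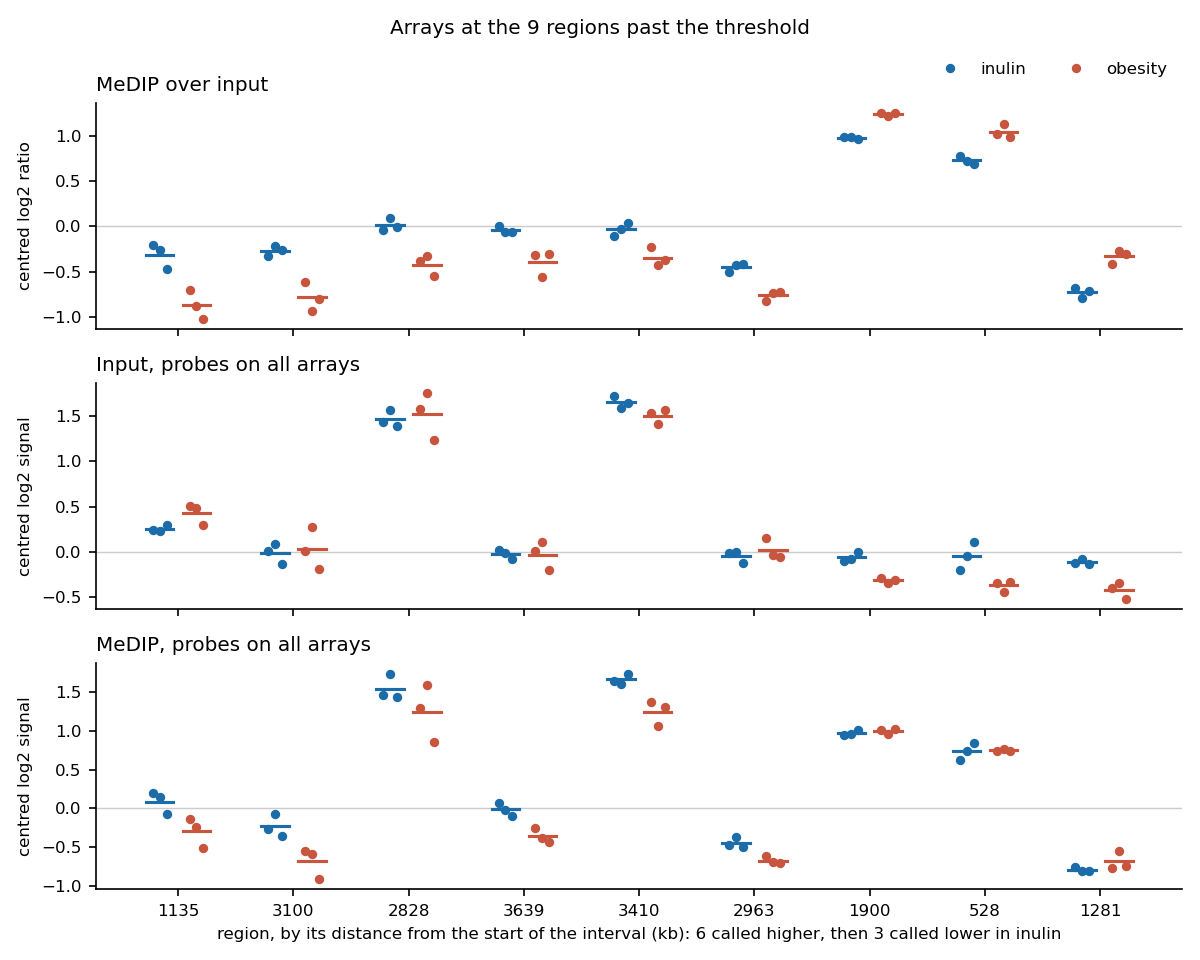
Log2 ratio of MeDIP over input (top), input signal (middle) and MeDIP signal (bottom) on each array at the 9 MHC regions past the threshold on the ratio, named by their distance in kb from the start of the interval, with inulin left and obesity right in each pair. Points are single arrays (3 per group), and lines are group means. Both channels are over the probes measured on all arrays. At the 3 rightmost regions, lower in inulin, the input of every inulin array lies above that of every obesity array.

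Inside the called regions the difference was carried by some probes. Of the 7 probes at chr17:34633875-34635393, all had the higher mean in inulin, and the probe at 34634544 gave -0.50 ± 0.049 in inulin and -1.70 ± 0.29 in obesity (SD, n = 3 each). At chr17:36598775-36600482 the 5 probes starting between 36599073 and 36600004 had differences of 0.56 to 0.88, and those at 36598775 and 36600220 differed by 0.014 and -0.061. The 8 probes at chr17:34780542-34782168 spread widely, between -2.36 and 1.65 in obesity, and 4 of them passed the threshold, each lower in inulin (by -0.64 to -1.06). At chr17:35398830-35400429 the ratio of the last probe, at 35400385, was 1.75 ± 0.082 in inulin and 2.29 ± 0.17 in obesity (SD, n = 3 each). Of the 99 called probes of the locus, 13 lay in the called regions. A region is called on the mean of these same probes, so this overlap follows in part from how regions were called.

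**Figure D4:**
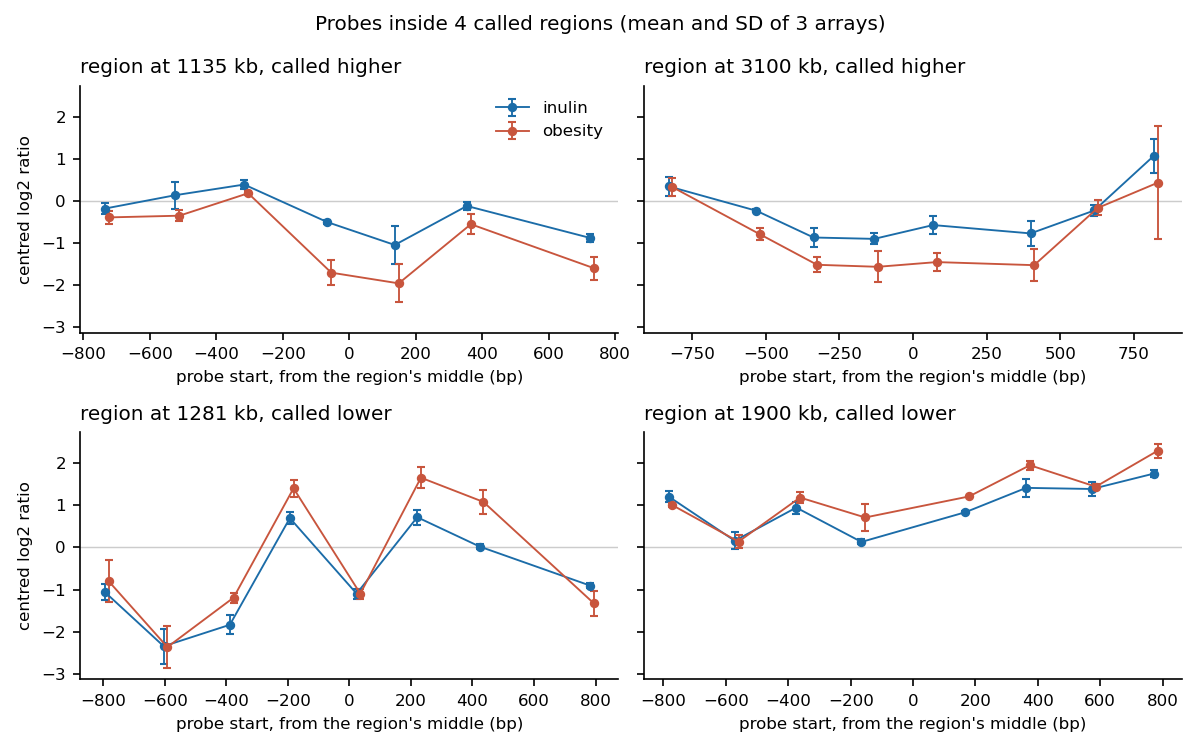
Log2 ratio of MeDIP over input of single probes inside 4 called MHC regions, against the distance in bp of the probe's start from the region's middle, for inulin and obesity. Points are means of 3 arrays and bars are SD. The region at 1135 kb has the higher mean in inulin at 7 of 7 probes, while the region at 1281 kb has probes as low as about -2.4 and as high as about 1.7.

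Single probes were called at a share near the background. Of 1330 MHC probes tested, 99 passed 0.05 by limma (7.44%), 53 higher and 46 lower, against 8.21% over all 170019 probes tested (5.12% higher, 3.08% lower). Of the MHC probes, 2 were called with scan as a random block (0.1504%, against 0.1588% over all probes). Without inulin arrays 1, 2 and 3 there were 4 (0.308%, against 0.553%), 5 (0.384%, against 0.421%) and 19 (1.458%, against 1.33%). Without obesity arrays 1 and 3 there were 35 (2.697%, against 3.053%) and 31 (2.403%, against 3.498%). A further 38 MHC probes had too few usable spots. Of the 99 calls, 7 lay outside the regions, where 39 probes were tested. The others fell into 71 of the 173 regions, 12 of which held calls in both directions. No such count over all regions is given here, so 71 and 12 are descriptions only. The lowest p for a higher probe was at chr17:35096728-35096787, with -2.00, -1.74 and -1.88 in inulin and -3.59, -3.16 and -3.59 in obesity (limma adjusted p = 0.00792). It was followed by chr17:35997430-35997489 (1.06 higher, adjusted p = 0.00947) and by chr17:34742266-34742322, whose MeDIP signal was above background on no array. The lowest p of the locus was that of chr17:37118110-37118155, which gave 0.53, 0.49 and 0.60 in inulin and 1.84, 1.67 and 1.90 in obesity (limma adjusted p = 0.00654), although its MeDIP signal was above background on 1 inulin array and on 3 obesity arrays. Next among the lower probes were chr17:34974786-34974836 (difference -1.42) and chr17:35302848-35302893 (difference -1.29). The groups did not overlap at any of these 6 probes.

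Each channel was then compared alone, because a ratio moves when either does. With every usable spot, limma called 3 of 173 MHC regions on the input, all higher in inulin (1.73%, against 2.14% over all regions, of which 1.24% were higher and 0.899% lower), and 0 on the MeDIP signal, against 0.253% over all regions (0.155% higher, 0.0975% lower). At an unadjusted p under 0.05, 46 MHC regions were found on the input (26.6%, against 24.4%) and 40 on the MeDIP signal (23.1%, against 21.0%). The groups did not overlap at 65 MHC regions on the input, 48 of them higher in inulin (37.6%, against 34.2%), and at 66 on the MeDIP signal (38.2%, against 32.0%). Because a missing probe shifts a channel mean, the same test was repeated over probes measured on all arrays, a setting chosen after the data were seen. Regions that lacked no probe kept their values, and only their p-values could change. The count on the input was then 35 of 173 (20.2%, against 17.6% over all regions), of which 31 were higher and 4 lower in inulin (against 11.8% higher and 5.83% lower over all regions). On the MeDIP signal it was 7, all higher (4.05%, against 7.47% over all regions, 6.11% higher and 1.35% lower). On the ratio it was 13, 8 higher and 5 lower (7.51%, against 10.4% over all regions, 7.32% higher and 3.07% lower). The groups then did not overlap at 75 MHC regions on the input (43.4%, against 39.5%), 74 on the MeDIP signal (42.8%, against 37.3%) and 52 on the ratio (30.1%, against 36.8%). These MHC shares were a little above those of the array on each channel and below on the ratio. The gaps were not tested, and the share called on the MeDIP signal was below that of the array. Among the 35 regions called on the input, 31 differed in the same direction on the MeDIP signal, 2 were also called there, and 5 were also called on the ratio.

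The input differences were also described along the locus. Over probes measured on all arrays, the median input difference was 0.12 to 0.24 in each of the 5 windows from 34750001 to 36000000, and between -0.15 and 0.11 in the other windows. This 1250 kb stretch, picked after its values were seen, held 74 regions, of which 58 had the higher mean input in inulin, 22 passed the threshold as higher (29.7%) and 1 as lower. The other 99 MHC regions held 9 higher calls (9.09%) and 3 lower ones, and over all regions 11.8% were called higher and 5.83% lower. Because the stretch was picked with these values in view, this contrast could not test whether the input differences cluster. Within the stretch the median difference was 0.17 on the input and 0.11 on the MeDIP signal, and on the ratio it was -0.026. The median input of its regions was 0.17, 0.092 and 0.26 on the inulin arrays and 0.090, 0.025 and 0.091 on the obesity arrays. These medians did not separate clearly, since inulin array 2 hardly exceeded obesity arrays 1 and 3, and no p is given for them.

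Over probes measured on all arrays, part of the 35 input calls remained in each setting run. With scan as a random block 20 were called on the input (19 higher, 11.6%, against 9.19% over all regions). Leaving out each array in turn gave 13 (without inulin array 2, 7.51%, against 7.62%) to 28 (without obesity array 3, 16.2%, against 15.1%). Without inulin array 3 there were 21 (12.1%, against 9.95%). All 20 and all 13 were among the 35. No scan held both groups, so scan and group cannot be told apart at any of them. The largest difference was at chr17:35840631-35842319, where the input was higher in inulin by 0.58, the MeDIP signal differed by 0.47 (limma adjusted p = 0.0587) and the ratio by -0.093. At chr17:35810128-35811507 the input was -0.65, -0.50 and -0.61 in inulin and -1.12, -1.02 and -1.20 in obesity, and the MeDIP signal was -1.19, -1.12 and -1.25 in inulin and -1.67, -1.57 and -1.72 in obesity. Both channels passed the threshold over probes measured on all arrays (limma adjusted p = 0.00260 for the input and 0.0203 for the MeDIP signal), and the ratio differed by -0.040. This region lacked no probe, and with every usable spot the same values gave a limma adjusted p of 0.0398 for the input and 0.0777 for the MeDIP signal. At chr17:36394292-36395877 the input was 0.41, 0.35 and 0.23 in inulin and -0.16, -0.21 and -0.13 in obesity, and at chr17:35137702-35138154 it was 2.09, 1.92 and 1.98 in inulin and 1.64, 1.49 and 1.46 in obesity. Among the 4 lower ones, chr17:34733630-34735113 had an input of 0.62, 0.66 and 0.70 in inulin and 1.04, 0.99 and 0.96 in obesity, and chr17:36314435-36316209 differed by -0.30. The remaining 2, at 35324915 and 37088359, differed by -0.34 and -0.33.

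**Figure D5:**
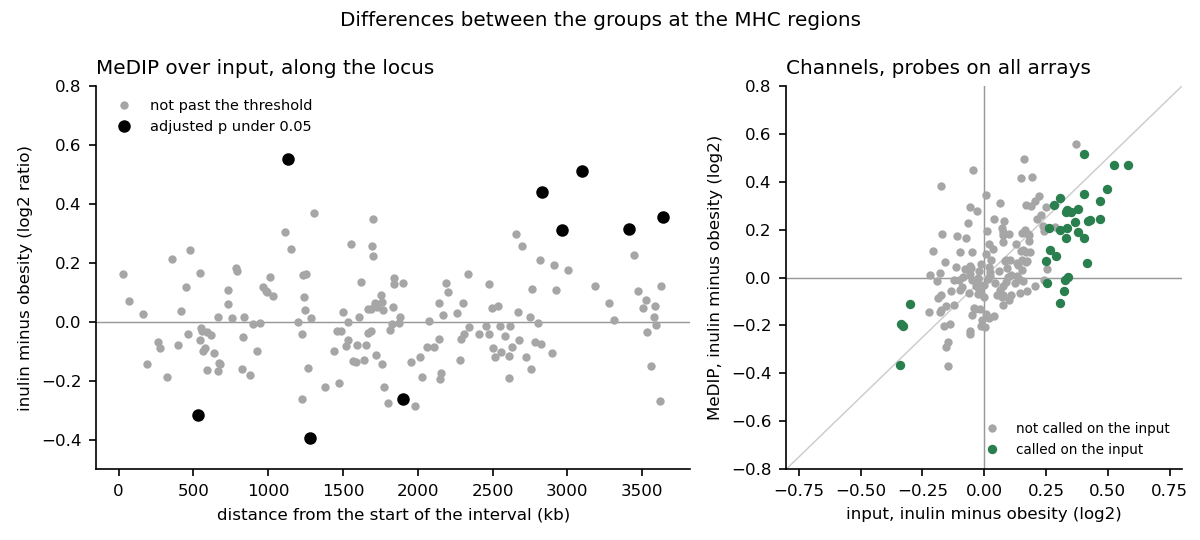
Left, difference in log2 ratio (inulin minus obesity) of the 173 MHC regions against the distance in kb from the start of the interval, with the 9 regions past the threshold in black. Right, difference in the MeDIP signal against the difference in the input of the same regions over probes measured on all arrays, with the 35 regions called on the input in green and the line of equal differences in grey. Most green points lie right of 0, with 31 higher and 4 lower in inulin.

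On the MeDIP signal, 5 more regions were called over probes measured on all arrays besides the regions at 35810128 and 35137702. These were chr17:34041912-34042389 (0.56 higher in inulin, over 2 probes), chr17:36909267-36910149 (0.41), chr17:37136865-37140939 (0.34), chr17:35117533-35119385 (0.34) and chr17:35977510-35978870 (0.30). At 35117533 the MeDIP signal was 1.38, 1.26 and 1.31 in inulin and 1.06, 0.92 and 0.95 in obesity. Among regions lower in inulin, those at chr17:36257888-36259411 (-0.24) and chr17:36016342-36017014 (-0.29) did not pass. Another one, at chr17:34340124-34341858, had a difference of -0.22 with every usable spot and of 0.059 over probes measured on all arrays.

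The region with the most probes, chr17:34256350-34260654 with 19, had a ratio of 0.16 ± 0.051 in inulin and 0.15 ± 0.056 in obesity (SD, n = 3 each). With 16 probes, chr17:34763558-34766976 had 0.39 ± 0.026 in inulin and 0.55 ± 0.096 in obesity and was not called on the ratio. Probes of one region differed from each other by a median SD of 0.81 in the MHC and 0.90 over all regions. The largest spread was at chr17:37088359-37089340 (SD 2.15), where mean probe ratios lay between -3.16 and 1.57 in inulin and between -3.54 and 1.78 in obesity, followed by chr17:35226034-35226710 (1.99) and chr17:36107324-36107877 (1.90). Among the 127 MHC regions with at least 7 probes, the middle probes lay below the outer ones in 69, with a median difference of -0.095. A middle lower by more than 1 was found in 13 (10.2%), against 11.5% over all regions with that many probes.

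Values on both sides of the ends of the interval are given as a description. Just inside the start, chr17:33531084-33532719 had a ratio of -0.50 ± 0.071 in inulin and -0.66 ± 0.11 in obesity (SD, n = 3 each), and just outside it chr17:33495336-33496889 had -0.61 ± 0.16 in inulin and -0.52 ± 0.0098 in obesity. Just inside the end, chr17:37136865-37140939 had -0.042 ± 0.036 in inulin and -0.40 ± 0.14 in obesity, and just outside it chr17:37159915-37161581 had -0.25 ± 0.037 in inulin and -0.14 ± 0.19 in obesity. Across the 173 regions, the arrays correlated at Pearson's r of 0.95 to 0.97 within inulin, 0.91 to 0.96 within obesity and 0.88 to 0.94 between the groups. Ratios spread less over the MHC on the inulin arrays, with an interquartile range of 0.57 ± 0.012 in inulin and 0.68 ± 0.060 in obesity (SD, n = 3 each). The same held over all regions, with 0.76 ± 0.039 in inulin and 0.90 ± 0.072 in obesity. When each array was put on an equal scale 8 MHC regions were called (4.62%, against 4.04% over all regions), 4 of them among the 9.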

How the data were processed

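Values came from 6 two-colour Agilent arrays, 1 per sample, with Cy5 for MeDIP and Cy3 for input, per the labels' protocols. The authors extracted them with Feature Extraction 11.0.1.1, per the file headers. The deposited processed signals are intensity values, corrected by the scanner software for background and for the dyes, per the file headers. The deposited log10 ratio, red over green, equalled that of the processed signals within 0.0001 at 98.5% to 99.6% of spots. The authors' deposited table holds a score per probe whose making, scale and centring are not given in the sources used here.

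Log2 values were computed from the processed signals, without outlier spots (1901 to 4863 per array), and centred per array on the median. No loess or quantile step was used. limma 3.58.1 under R 4.3.3 gave two-sided moderated tests (lmFit, then eBayes), adjusted by Benjamini-Hochberg over every region or probe measured on 2 or more arrays per group. Alternatives tried were normexp, loess, equal scale, quantile, the deposited table, background filters, scan and replicate blocks, leaving out arrays, the median of probes and other gaps. Probes measured on all arrays, and the stretch described on the input, were added after the data were seen. Differences are inulin minus obesity. The fit was tested on simulated data. Figures were drawn with matplotlib 3.10.9. Regions were named by a rule: the calls on the ratio, the extremes of ratio, input, probe number and probe spread, the leading regions of each channel, and those at the ends. The members, lists and rule were chosen with earlier results of these data known. Samples with the same replicate number were not treated as pairs, because their deviations from the group means correlated at -0.14, 0.28 and 0.33. The array files name no gene or probe sequence, and no mm9 genome was used.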

Additional observations from a re-analysis of the deposited data

How the results depend on the processing

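Results are given for the alternatives run, with the main value first. On the ratio, 9 MHC regions were called. The count was 21 after loess (12.1%, against 12.4% over all regions), 5 after quantile normalization (2.89%, against 2.20%) and 5 with input above background (2.89%, against 3.81%). It was 3 with both channels above background (1.73%, against 0.614%) and 5 with the median of the probes (2.89%, against 3.25%). With scan as a random block (estimated correlation 0.29) it was 0, and leaving out each array gave 0 to 11 (6.36%, against 9.62%, at the highest). The count stayed within 1.5 times of 9 under normexp (13, 5 higher and 8 lower, 7.51% against 8.51%), equal scale (8, 4 and 4, 4.62% against 4.04%) and the deposited table (6, 5 and 1, 3.47% against 2.51%). It did so too over probes measured on all arrays (13, 7.51% against 10.4%) and with gaps of 300 bp (9, 4.43% against 6.51%) and 1000 bp (7, 4.22% against 7.85%). The MHC share was thus above the array's under equal scale, quantile normalization, the deposited table and both channels above background. Loess kept all 9 regions and normexp 6, while 4 were kept in the deposited table and 3 after quantile normalization. The region at 35398830 reversed in the deposited table (0.0054). On the input, the 3 calls became 0 with input above background (against 0.718% over all regions), 0 with scan as a random block (against 0.602%) and 0 leaving out any array (against at most 0.833%). They became 1 under normexp (0.578%, against 0.766%), 5 with equal scale (2.89%, against 3.39%) and 35 over probes measured on all arrays (20.2%, against 17.6%). Those 35 became 22 under normexp (12.7%, against 9.24%), 20 with scan as a random block (11.6%, against 9.19%) and 13 to 28 leaving out each array (7.51% to 16.2%, against 7.62% and 15.1% in the same settings). On the MeDIP signal, 0 calls became 7 over probes measured on all arrays (4.05%, against 7.47%). Of probes, 99 calls became 214 under normexp (16.1%, against 15.9% over all probes), 161 after loess (12.1%, against 12.5%) and 40 with equal scale (3.01%, against 3.51%). They became 31 after quantile normalization (2.33%, against 2.70%), 47 in the deposited table (3.44%, against 2.88%) and 2 with scan as a random block (0.150%, against 0.159%). Leaving out each array gave 4 (0.308%, against 0.553%) to 112 (8.56%, against 9.07%). The cause was not tested, except that fewer arrays or spots enter some settings.

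With the replicate number as a replicate block, 13 MHC regions (9 higher, 4 lower) were called on the ratio (7.51%, against 11.956% over all regions). Of probes, 89 were called (6.69%, against 8.674% over all probes). No region of the array was called on the input or on the MeDIP signal, so both MHC counts were 0. On the input over probes measured on all arrays the count was 37 (21.387%, against 21.259% over all regions).

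The median MHC difference of the ratio, -0.0033, was 0.036 with both channels above background. That of the input, 0.075, was 0.012 under normexp and 0.0075 with input above background. That of the MeDIP signal, 0.055, was 0.021 under normexp, 0.083 with equal scale, 0.040 with input above background and 0.032 to 0.065 leaving out each array. No call of this locus is separable from scan, and 3 arrays per group with MeDIP signals above background at 85.9% of MHC spots limit what could be seen.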
